A study of Rattus norvegicus with 2 samples.

Results

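Mbp, Mog, Mag, Mobp, Cnp, Cldn11, Mal, Opalin and Ugt8 encode proteins of the myelin sheath or the enzyme that makes its main glycolipid, and were followed here in hypothalamic RNA of rats before and at puberty. The members were taken by name from the gene names of the deposited table. All 9 were found among the 22777 genes of the mRNA table, with 15 of its 26324 transcripts. The rats were Sprague Dawley, with no treatment or transgene named, at postnatal day 25 (prepubertal group) or postnatal day 35 (pubertal group), and vaginal opening was the mark of puberty. The hypothalami of 3 rats are stated for either group, but a single column of values stands for each, with nothing said of pooling or averaging. Each stage is treated as 1 library, the spread between rats is unknown, and no test or p-value is given. The tissue is whole hypothalamus, so fewer cells of a type and less RNA per cell cannot be told apart.

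Myelin is the stacked membrane that oligodendrocytes wrap around axons in the brain, and it lets action potentials jump from node to node. In rodents most of it is laid down after birth, over the weeks that include puberty, and its RNAs are among the most abundant of the brain. Oligodendrocyte progenitors first leave the cell cycle, then switch on myelin genes under transcription factors such as SOX10 and MYRF. The proteins have separate places in the sheath. MBP, a basic protein, and MOBP draw the cytoplasmic faces of compact myelin together, CNP holds cytoplasmic channels open, MAG lies on the inner face beside the axon, MOG lies on the outermost surface, and claudin 11 seals the layers with tight junctions. MAL is a small membrane protein of raft transport, opalin is a transmembrane protein of mature oligodendrocytes, and UGT8 adds galactose to ceramide to form galactosylceramide.

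The start regions of the members were read from RefSeq (build GRCr8, not the build of the expression files, so no value was placed by these coordinates). The window of each entry runs from 250 bases before to 50 after a transcript start, and entries were found for 8 of the 9 members, Mog having none. Matches on both strands to CTGGCAC and CTGGTAC, the spelled forms of the motif of MYRF, were counted, and no match overlapped another searched motif. Either form was found in 5 of the 8 genes, against 6.78% of all 33469 windows and 7.27% of all 27457 genes with a window. CTGGCAC was in Mag, Opalin, Mal and Cnp (5.07% of all genes), and CTGGTAC was in Cldn11 (2.34%). These 5 stretches are shown because they carry that shared feature, with the match or its reverse complement in capitals and the strand of the gene read 5′ to 3′. They are chr1:95291132-95291294, minus strand, for Mag, chr1:249858191-249858220, minus strand, for Opalin, chr3:135341424-135341673, minus strand, for Mal, chr10:86011254-86011503, plus strand, for Cnp, and chr2:114149540-114149789, minus strand, for Cldn11.
Mag: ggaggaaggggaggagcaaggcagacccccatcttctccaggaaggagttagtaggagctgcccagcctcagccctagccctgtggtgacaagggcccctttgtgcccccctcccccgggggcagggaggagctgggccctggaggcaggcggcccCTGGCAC
Opalin: acacagacctacaGTGCCAGtgagagagaa
Mal: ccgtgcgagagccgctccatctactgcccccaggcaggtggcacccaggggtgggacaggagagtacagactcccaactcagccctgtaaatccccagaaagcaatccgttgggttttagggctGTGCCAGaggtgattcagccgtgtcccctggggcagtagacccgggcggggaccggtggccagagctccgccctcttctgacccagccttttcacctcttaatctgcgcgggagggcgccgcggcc
Cnp: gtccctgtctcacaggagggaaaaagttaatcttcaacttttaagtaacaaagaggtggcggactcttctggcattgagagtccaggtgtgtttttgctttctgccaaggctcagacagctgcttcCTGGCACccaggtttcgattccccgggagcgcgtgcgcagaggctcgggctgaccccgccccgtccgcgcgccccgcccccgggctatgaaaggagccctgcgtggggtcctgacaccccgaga
Cldn11: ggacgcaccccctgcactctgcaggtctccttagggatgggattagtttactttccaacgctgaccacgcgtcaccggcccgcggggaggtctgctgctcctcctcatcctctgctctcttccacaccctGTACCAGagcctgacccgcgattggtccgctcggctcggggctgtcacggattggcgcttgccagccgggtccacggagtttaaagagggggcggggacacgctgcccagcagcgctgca

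Counted back from the transcript start, the first base of the match lay at -94 in Mag, -17 in Opalin, -126 in Mal, -124 in Cnp and -120 in Cldn11. RefSeq places the first base of the Mag gene 89 bases and that of Opalin 233 bases before the start used here, so the stretch of Opalin was kept to 30 bases and lies inside the annotated gene. ACAAAG, a core of SOX factor motifs, was found in 5 of the 8 genes (Cnp, Mag, Mbp, Mobp and Opalin), against 19.7% of all genes with a window. Mbp has more than 1 window, and all its matches lie in the one whose start is 79593 bases inside the annotated gene, while the window at the first base of the gene held none. ACAATG, another SOX core, was in Mbp and Opalin (14.1% of genes), and CAGCTG, an E-box, was in Cnp, Mbp and Opalin (16.2% of genes). The window of Ugt8 held none of these letters. Mobp differed from the other members in that its window held 8 copies of ACAAAG, all read as CTTTGT on the strand of the gene. They are shown in capitals in chr8:128746982-128747117, plus strand, the stretch that ends at the first base of the annotated gene, 115 bases before the start used.
Mobp: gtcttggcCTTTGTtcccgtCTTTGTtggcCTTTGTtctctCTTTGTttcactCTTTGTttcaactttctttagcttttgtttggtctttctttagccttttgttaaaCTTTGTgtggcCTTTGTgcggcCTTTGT

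These matches describe letters in short windows, and binding was not measured. The genes that share CTGGCAC were found on both sides of the comparison of the stages, since Mal was higher and Mag, Opalin and Cnp were lower in the pubertal library.

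The levels of the 9 genes spanned 76.8-fold before puberty and 115.8-fold at puberty. Values are FPKM, the sequenced fragments of a transcript divided by its length in kilobases and by the depth of its library, summed over the transcripts of a gene, so levels of different genes can be set side by side. Mbp was the highest member, at 4633 FPKM before puberty and 5335 FPKM at puberty, and ranked 10 among 14029 genes in each library. Mobp came next with 929.9 and 1140.1 FPKM. Its place rests on a 411 nt transcript (605 and 778 FPKM), and the FPKM of so short a transcript depends on the assumed size of fragments. Before puberty the order went on with Cldn11 (656 FPKM), Cnp (623), Mal (494), Ugt8 (236), Mag (192), Mog (183) and Opalin (60.3). Every neighbouring pair of this order was separated by more than the counting error of the library. At puberty Mal, at 590.1 FPKM, stood level with Cldn11, at 590.4 FPKM, and their counting intervals overlapped. Cnp followed at 534 FPKM and Ugt8 at 200.2 FPKM. Mog (161 FPKM) and Mag (153 FPKM) had traded places, with overlapping counting intervals, and Opalin was again lowest at 46.1 FPKM. Together the 9 genes took 1.04% of all mRNA FPKM before puberty and 1.09% at puberty. Mbp alone took 0.5995% and 0.6627%, and the other 8 genes summed to 3374 and 3415 FPKM.

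**Figure D1:**
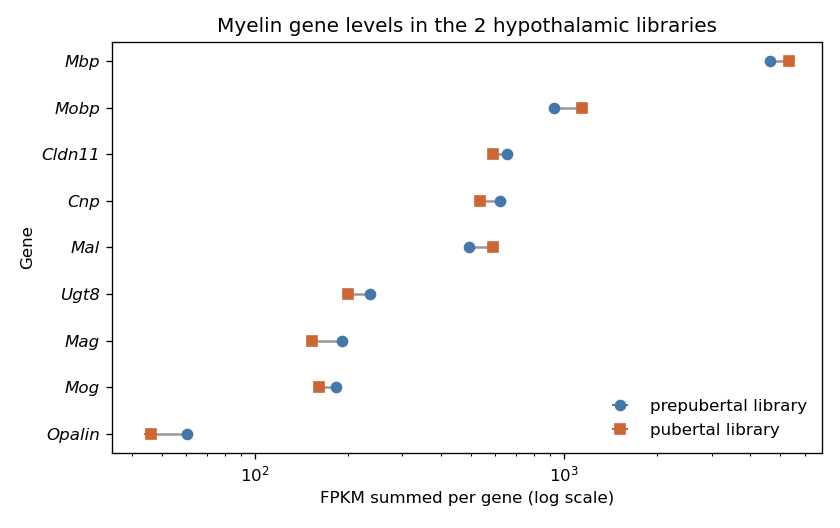
FPKM summed per gene (log axis) of the 9 myelin genes in the prepubertal library (circles) and the pubertal library (squares), with bars for the 95% counting interval, mostly narrower than the symbols. Mbp, Mobp and Mal lie further right at puberty and the other 6 genes further left, and Mal at 590.1 FPKM meets Cldn11 at 590.4 FPKM.

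FPKM does not give the number of fragments, but the low values carry it. For genes with 1 transcript longer than 1500 nt, 96.6% of 585 low values in the prepubertal library and 94.4% of 703 in the pubertal library were whole multiples, within 0.05, of the value of 1 fragment, up to 5 fragments. This gave a depth of about 20800000 fragments before puberty and 16200000 at puberty. The members rest on at least 1821 fragments per library, Opalin at puberty, and on up to 173951 for Mbp. The intervals given are 95% intervals from these numbers, cover counting error only, and say nothing of the spread between rats.

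Between the libraries the members parted into 3 that were higher and 6 that were lower at puberty. Of all 14029 genes with at least 1 FPKM in 1 library, 48.9% were higher at puberty. All 9 members passed this filter in both libraries. Differences are log2 ratios of FPKM + 1, pubertal over prepubertal, and are positive where the gene was higher at puberty. The median of the 9 genes was -0.18, against -0.01 for all genes. None of the 9 differed by 1.5-fold when transcripts were summed, which 2.0% of all genes did upwards and 2.65% downwards, and none by 2-fold, which 1.1% of all genes did in either direction.

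The higher members were Mobp, Mal and Mbp. Mobp, from 929.9 to 1140.1 FPKM, had a log2 ratio of 0.29 (counting interval 0.23 to 0.36), at percentile 90.5 of all genes. Mal, from 494 to 590.1 FPKM, had a log2 ratio of 0.26 (0.23 to 0.28), at percentile 87.8. Mbp, from 4633 to 5335 FPKM, had a log2 ratio of 0.20 (0.19 to 0.21), at percentile 82.8. All 3 lay above the upper quartile of all genes, 0.14. Their products are proteins of compact myelin or of transport towards it.

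The lower members were Opalin, Mag, Ugt8, Cnp, Mog and Cldn11. Opalin, from 60.3 to 46.1 FPKM, had the lowest log2 ratio of the 9 sums, -0.38 (counting interval -0.47 to -0.30), at percentile 8.07 of all genes. Mag, from 192 to 153 FPKM, had a log2 ratio of -0.33 (-0.37 to -0.28), at percentile 11.0. Both code for single-pass membrane proteins, and the pubertal level was 0.764 of the prepubertal one for Opalin and 0.797 for Mag. For Ugt8, the enzyme of galactosylceramide synthesis, the values were 236 and 200.2 FPKM and the log2 ratio -0.23 (-0.27 to -0.20). Cnp, from 623 to 534 FPKM, had a log2 ratio of -0.22 (-0.25 to -0.19). Both stood below percentile 20, at 18.4 and 19.6. Mog, from 183 to 161 FPKM, had a log2 ratio of -0.18 (-0.24 to -0.12). Cldn11, from 656 to 590.4 FPKM, had a log2 ratio of -0.15 (-0.18 to -0.12). It lay within the quartiles of all genes, at percentile 28.0, whereas the other 5 lower members lay below the lower quartile of -0.17.

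**Figure D2:**
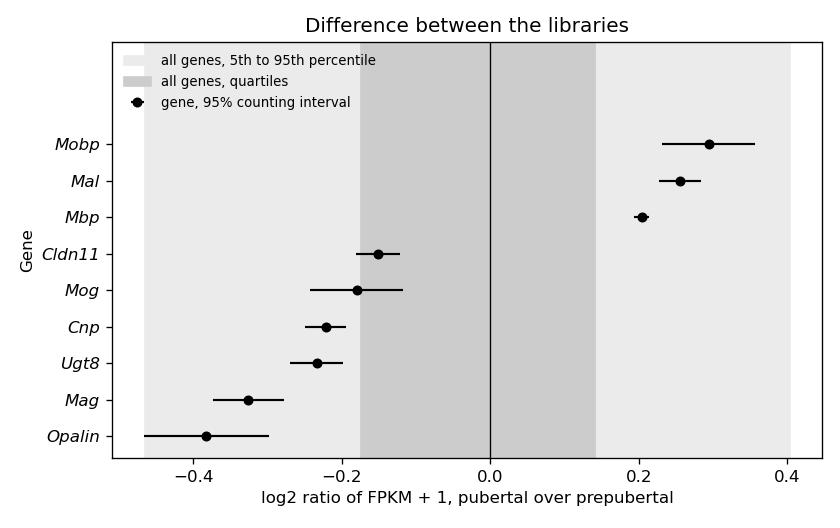
log2 ratio of FPKM + 1, pubertal over prepubertal, of each myelin gene (points) with its 95% counting interval (bars), over the quartiles (dark band, -0.17 to 0.14) and the 5th to 95th percentiles (light band, -0.46 to 0.40) of all 14029 genes. All 9 points lie inside the light band, 3 to the right of the dark band, 5 to its left and Cldn11 within it.

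Longer transcripts were lower at puberty in these libraries over all genes, and this touches the members unequally. With all genes divided into 10 classes by the length of the leading transcript, the median log2 ratio was 0.08 in the shortest class and -0.13 in the longest. The leading transcript of Mobp was in the shortest class and that of Ugt8, at 3481 nt, in a class with a median of -0.07. After subtracting the median of the length class, the log2 ratio of Mobp was 0.22 and that of Ugt8 was -0.16. The other 7 members stayed within their counting intervals, and none of the 9 changed direction.

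The 15 listed transcripts of the members were 7 higher and 8 lower at puberty. Of these, 1 was at least 1.5-fold higher and 1 at least 1.5-fold lower, both from Mag, against 1.65% and 2.04% of the 8796 transcripts with at least 10 FPKM in 1 library. The 6 genes with 1 listed transcript carry the gene value already given.

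Mag has 2 listed transcripts that differ in length by 45 nt, and their order turned between the libraries. The 2584 nt transcript (ENSRNOT00000028544) went from 136 FPKM (counting interval 133 to 140) to 68.3 FPKM (65.7 to 71.0), log2 ratio -0.99. The 2629 nt transcript (ENSRNOT00000044532) went from 55.6 FPKM (53.5 to 57.7) to 84.8 FPKM (81.9 to 87.7), log2 ratio 0.60. The shorter one thus held 71.0% of the FPKM of Mag before puberty and 44.6% at puberty, a difference of -26.4 percentage points. Among 1034 genes with several listed transcripts and at least 10 FPKM in both libraries, the share of the leading transcript moved by at least 20 points in 1.84%, and Mag lay at percentile 99.1 of the size of this shift. A transcript 1.5-fold higher beside a transcript 1.5-fold lower was found in 3 of these genes, Mag included, 0.29%. The counting intervals of the 2 transcripts leave out the error of dividing shared fragments between them, which was not measured. As estimated, the sum of Mag, -0.33, combines opposite differences of its parts. Mag is known to make a large form, L-MAG, and a small form, S-MAG, by leaving out or keeping a short exon near the 3′ end, and the 2 proteins differ in their cytoplasmic tail. The files do not say which listed transcript codes for which form.

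Mbp has 4 listed transcripts of 2037 to 2160 nt, whose lengths differ from each other by multiples of 3. MBP is known to be made in several sizes through alternative use of its exons. The 2082 nt transcript led, with 2807 FPKM before puberty and 3471 FPKM at puberty (log2 ratio 0.31), and its share went from 60.6% to 65.1%. The 2037 nt transcript went from 1359 to 1540 FPKM (log2 ratio 0.18) and kept a near equal share, 29.3% and 28.9%. The 2049 nt transcript moved the other way, from 439 to 300.3 FPKM (log2 ratio -0.54), and its share went from 9.47% to 5.63%. The longest, at 2160 nt, was also lower, from 28.2 to 24.0 FPKM (log2 ratio -0.22), with a share of 0.608% and 0.449%. The higher sum of Mbp was thus carried by the 2 most abundant of its 4 transcripts. The leading share moved by 4.47 points, at percentile 68.0 of the 1034 genes.

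Mobp has 3 listed transcripts, and all 3 were higher at puberty. The 411 nt transcript went from 605 to 778 FPKM (log2 ratio 0.36), the 624 nt transcript from 60.6 to 80.8 FPKM (log2 ratio 0.41) and the 2395 nt transcript from 264 to 281 FPKM (log2 ratio 0.09). The short transcripts set the sum, as the 411 nt transcript held 65.1% of it before puberty and 68.2% at puberty. About 250 to 260 nt are taken from the length of a transcript when its FPKM is computed, so the values of the short transcripts depend more on the assumed size of fragments than that of the long one.

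**Figure D3:**
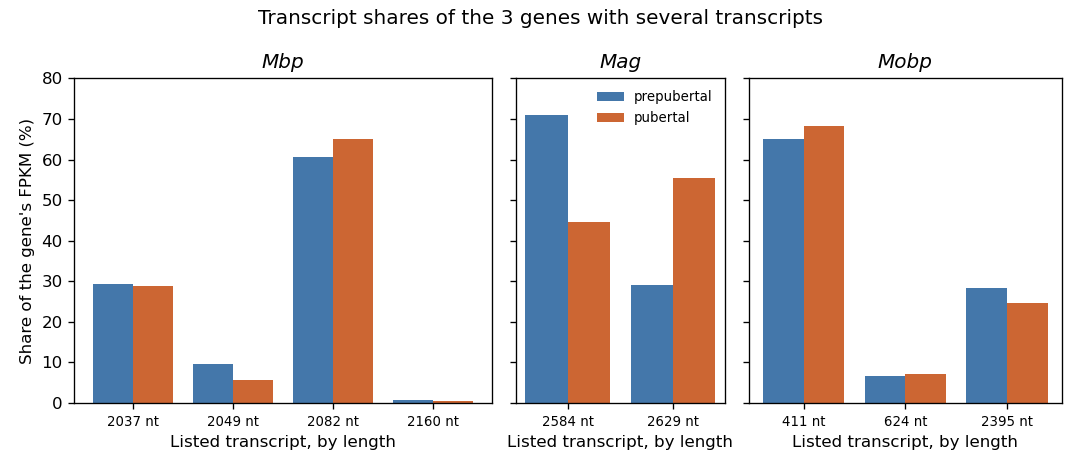
Share of the gene's FPKM (%) held by each listed transcript of Mbp, Mag and Mobp in the prepubertal and the pubertal library (bars side by side, labelled by transcript length, axis from 0). The 2584 nt transcript of Mag has 71.0% before and 44.6% at puberty, whereas no transcript of Mbp or Mobp moves by more than 4.47 points.

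Other genes of the lineage were set beside the members from lists written with earlier results known. Of 26 other myelin and mature oligodendrocyte genes that passed the filter, 19 were higher at puberty and 7 lower, with a median log2 ratio of 0.14. At least 1.5-fold differences were found for 4 upwards and 1 downwards. The largest were those of Plekhb1, from 112 to 207 FPKM (0.87), and Hapln2, a link protein of nodes, from 19.4 to 36.0 FPKM (0.86). The lowest were Nfasc, neurofascin, an adhesion protein of nodes and paranodes also made by neurons, from 58.2 to 35.4 FPKM (-0.70), and Gal3st1, which adds sulfate to the lipid that UGT8 makes, from 9.32 to 7.14 FPKM (-0.34). The members thus held 3 of 9 higher genes where this list held 19 of 26, and the difference between the lists was not tested.

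Of 10 transcription factors of the lineage, 5 were higher and 5 lower, none by 1.5-fold, with a median log2 ratio of -0.01. Sox10 went from 15.1 to 14.6 FPKM (-0.05) and Myrf from 5.62 to 6.11 FPKM (0.10), the 2 factors named above for myelin genes. The extremes were Sox8 (-0.26) and Olig1 (-0.15) on the low side, and Zfp536 (0.17) and St18 (0.15) on the high side. All 7 progenitor genes measured were lower at puberty, with a median of -0.22. Gpr17, a receptor of progenitors that are about to mature, was lowest, from 38.2 to 21.1 FPKM (-0.83), followed by Ptprz1 (-0.30), and Neu4 (-0.08) and C1ql1 (-0.13) were nearest to 0.

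Of 12 enzymes of sphingolipids and fatty acids, 7 were higher and 5 lower, from -0.27 for Gnpat and -0.25 for Fasn to 0.10 for Galc, which breaks down galactosylceramide, and 0.13 for Elovl7. With the libraries scaled to equal FPKM totals, or with ratios centred by length, 5 of the 12 were higher. Of 17 cholesterol synthesis genes, 13 were lower and 4 higher, with a median of -0.17. Lss, from 3959 to 1451 FPKM (-1.45), was lowest, but its leading transcript is listed at 180 nt, shorter than the 250 nt taken from lengths, so its level is uncertain. Msmo1 (0.15) and Fdft1 (0.13) were highest. All 8 genes of nodes and axon contact were lower, with a median of -0.14, where 48.9% of all genes were higher. They lay between Ank3 (-0.37) and Cntnap1 (-0.27) at the low end and Cntn1 (-0.11) and Nrcam (-0.07) at the other. The leading transcripts of Ank3, Cntnap1, Scn8a, Sptbn4 and Nrcam were in the longest length class, whose median over all genes was -0.13. With ratios centred by length, 1 of the 8 was higher.

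**Figure D4:**
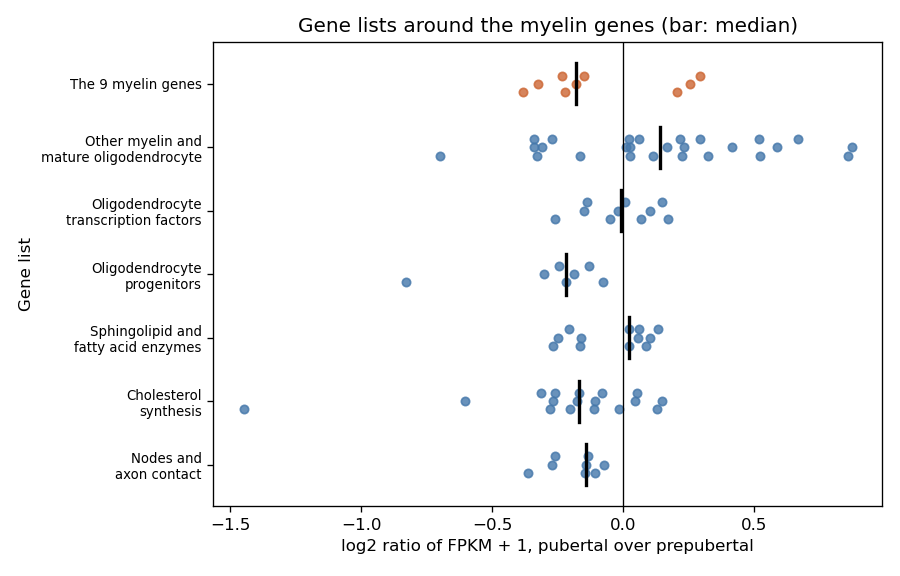
log2 ratio of FPKM + 1, pubertal over prepubertal, of each gene (points) in the 9 myelin genes and 6 other lists, with the median of each list (black bar). The myelin genes lie on both sides of 0 with a median of -0.18, the other mature oligodendrocyte genes have a median of 0.14, and all 7 progenitor genes lie below 0.

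Markers of other tissues and cells also differed between the libraries. The hypothalamic label was checked on its peptides, of which Pmch had 1675 and 2723 FPKM and Oxt 411 and 686 FPKM, and 12 of the 15 hypothalamic markers that passed the filter were higher at puberty (median 0.29), with Gnrh1 (-0.38) and Otp (-0.31) lowest. All 5 markers of thalamus and telencephalon that passed were lower at puberty, with a sum of 194 and 126 FPKM. Camk2a was lowest among them (-1.23), then Neurod6 (-0.86), and Prkcd was nearest to 0 (-0.33). All 4 red blood cell genes were at least 1.5-fold higher at puberty, from 6406 to 12539 FPKM in sum, with Hbb highest (1.47). Of the genes of Schwann cells and peripheral myelin, all 3 that passed the filter were higher at puberty, among them Pmp2 at 2.41 FPKM (0.13) and Pmp22 at 26.1 FPKM (0.15), and Prx and Egr2 stayed under 1 FPKM. Of 7 neuronal genes, 5 were lower and 2 higher (median -0.27), from Rbfox3 (-0.48) to Nefh (0.09). The part of these differences in the myelin values was not tested.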

How the data were processed

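Hypothalamic RNA of prepubertal and pubertal rats was measured by RNA-seq, with 3 rats stated per stage and 1 column per stage in the files. Ribosomal RNA was removed and libraries were strand-specific. The authors aligned paired-end reads with TopHat and assembled transcripts with Scripture and Cufflinks. The deposited FPKM per transcript were estimated by the authors with Cuffdiff (submitters' processing notes: Cuffdiff 2.1.1, Cufflinks 2.1.1, build Rnor_5.0). The study's methods name an annotation of a later build, so the build is unsettled, and the values were used by identifier only. Where transcripts of a gene overlap, Cuffdiff divides shared fragments between them, so transcript values are less certain than sums. Per the file headers, the comparison table also holds log2 fold changes, p-values and q-values of the authors, which were not used. Its gene names and its transcript lengths in nt were used as deposited, and its FPKM differ from the mRNA table for 13 transcripts. The lncRNA sequences were not used.

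FPKM were summed per gene, and log2 ratios had a pseudocount of 1. Genes with at least 1 FPKM in 1 library formed the background. No statistical test was run, since a stage is 1 library. Counting intervals (95%) are exact Poisson limits for transcripts and normal approximations for gene sums and ratios, from fragment numbers recovered from the steps of low FPKM. The recovery was tested on simulated data. Members, gene lists, motifs and the rule for named genes (all members, the 2 highest and 2 lowest of each of the first 6 lists, and genes beside a result) were chosen with earlier results of these data known. Some genes of the lists are counted but not reported here by name. With 2 columns, no genes could be named for likeness of pattern. Alternatives were a pseudocount of 0.1, equal totals or equal medians of the libraries, the transcript with the highest mean over both libraries alone, the FPKM of the comparison table, log2 ratios centred in 10 length classes, and no filter or at least 10 FPKM. Calculations were done in Python 3.11.15 (pandas 2.3.3, numpy 2.4.6 and scipy 1.17.1), and plots were drawn with matplotlib 3.10.9.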

Additional observations from a re-analysis of the deposited data

How the results depend on the processing

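The direction of each of the 9 members was kept under all 6 alternatives run for it, and 36 of these 54 values lay within the counting interval of the reported one. Taking the transcript with the highest mean over both libraries moved Mag most, from -0.33 to -0.99, so that 1 member in place of 0 differed by 1.5-fold, and gave 0.31 for Mbp and 0.36 for Mobp. For Mag this direction depends on the choice of transcript, since the one that leads at puberty has 0.60. Scaling to equal medians (0.07 added on the log2 scale) gave 0.27 for Mbp, -0.11 for Mog, -0.26 for Mag, 0.36 for Mobp, -0.16 for Cnp, -0.086 for Cldn11, 0.32 for Mal, -0.17 for Ugt8 and -0.11 for the median of the members, with 58.3% of all genes higher. Scaling to equal FPKM totals gave 0.17 for Mbp, -0.26 for Cnp, -0.19 for Cldn11, 0.22 for Mal and -0.27 for Ugt8, with 42.7% of all genes higher. Centring by length gave 0.22 for Mobp and -0.16 for Ugt8, and placed 1 gene of nodes and axon contact above 0 in place of 0. At least 10 FPKM left 1 higher transcription factor in place of 5, as fewer genes were counted. With that limit for Mag, the number of higher members was 3 under every alternative run. No paired analysis was possible because each stage is 1 column. Counting error is small at these levels, but it does not cover the spread between rats, which is unknown.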

Other observations

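The remaining marker lists were measured beside the myelin genes and give values only. All 6 microglial genes were higher at puberty (median log2 ratio 0.20), none past 1.5-fold, from P2ry12 (0.11) and Csf1r (0.17) to C1qa (0.25) and Aif1 (0.49). Of 7 astrocyte genes, 4 were higher and 3 lower, between Gja1, a gap junction protein, from 106 to 66.3 FPKM (-0.67) and Aldh1l1 from 16.9 to 21.6 FPKM (0.34). Of 4 endothelial genes, 2 were higher and 2 lower, with Slco1a4, a transporter of the blood-brain barrier, highest, from 29.0 to 43.5 FPKM (0.57). Of the choroid plexus genes that passed the filter, 2 were higher and 1 lower, Ttr from 29.0 to 23.0 FPKM (-0.32). Of 4 pituitary genes, 3 were higher and 1 lower. Prl was listed at 0 before puberty and at 3.40 FPKM at puberty, and Gh1 went from 0.872 to 4.09 FPKM.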
